A study of Bos taurus with 12 samples.

Results

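A set of 10 genes that mark fat cells was followed in the biceps brachii of bulls, as a readout of the marbling fat that lies between muscle fibres. The members were ADIPOQ, LEP, PLIN1, FABP4, CIDEC, CIDEA, PPARG, CEBPA, CFD and AOC3, a list chosen with earlier results of these data known. Their probes were taken by name: every probe other than controls whose gene name, gene number, accession or description on the array maps to one of these symbols. All 10 had a probe, 12 probes in all out of 21475 on the array, with 2 each for ADIPOQ and CEBPA. The 13681 genes tested were those whose signal cleared background well on 4 or more of the 12 arrays, and 8 of them were members. ADIPOQ and LEP did not reach that minimum.

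The arrays held 4 bulls given dexamethasone with clenbuterol, 4 given dexamethasone alone and 4 untreated controls, all male and 18 to 20 months old. Clenbuterol, a beta-adrenergic agonist, was fed over 28 days in steps of 2 mg (week 1), 4 mg (week 2) and 6 mg per head (thereafter), together with dexamethasone, a synthetic glucocorticoid, at 0.66 mg per head for 21 days. Bulls on dexamethasone alone received 0.75 mg per head for 42 days, so clenbuterol was not all that set the treated groups apart, since dexamethasone was also given longer and at a higher dose when alone. Each array is 1 animal, and the 12 samples were chosen from 24 animals, 8 per group, for their RNA quality.

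Adipocytes store triglyceride in a single large lipid droplet and arise from precursor cells under the transcription factors PPARG and CEBPA. The mature cell coats its droplet with perilipin, enlarges it with CIDE-family proteins, carries fatty acids on FABP4 and secretes hormones such as adiponectin and leptin. In beef cattle, the adipocytes between muscle fibres make up marbling, which differs widely from animal to animal.

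A level here is the log2 signal of a probe minus the 75th percentile of its own array, so that a difference of 1 is a doubling. Levels of different genes come from different probes and are not set against each other. On each array 53.2% to 68.7% of the spots stood well above background. Precision is set by the 4 arrays per group. The lowest level at which a probe counted as well above background lay between -7.85 and -4.90 on the 12 arrays. Where a probe was not well above background, its value is not a measured level. The upper bound then used is the higher of the value and that lowest level on the same array. Some spots above that lowest level were still not well above background, so the bound is approximate. The 7 arrays of scan day 2 (3 combination, 3 dexamethasone, 1 control) had a mean negative-control signal of 67.3 to 92.5, against 30.8 to 43.7 on the others. The skeletal muscle fibre genes used as a check of the tissue were all measurable, 10 of the 10 that had a probe.

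Of the 8 tested markers, 0 passed the test (limma, adjusted p under 0.05) for dexamethasone against control, the combination against control or the combination against dexamethasone, in which 0.614%, 0.0439% and 0.0146% of all genes passed. The larger quantity was the difference between animals: FABP4 and CIDEC varied more among bulls of the same group than nearly all other genes, and dexamethasone replicate 2 carried the highest level of FABP4, CIDEC, PLIN1 and ADIPOQ of all 12 animals. For PLIN1 its lead was smaller than the difference between the spots of the next animal. CIDEA, CFD and AOC3 had the smallest unadjusted p-values of the set, in different comparisons. As a readout of marbling fat the set was uneven: ADIPOQ was well above background in 1 of 12 animals and LEP in 0, so the fat hormones that define adipocytes were mostly out of range.

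**Figure D1:**
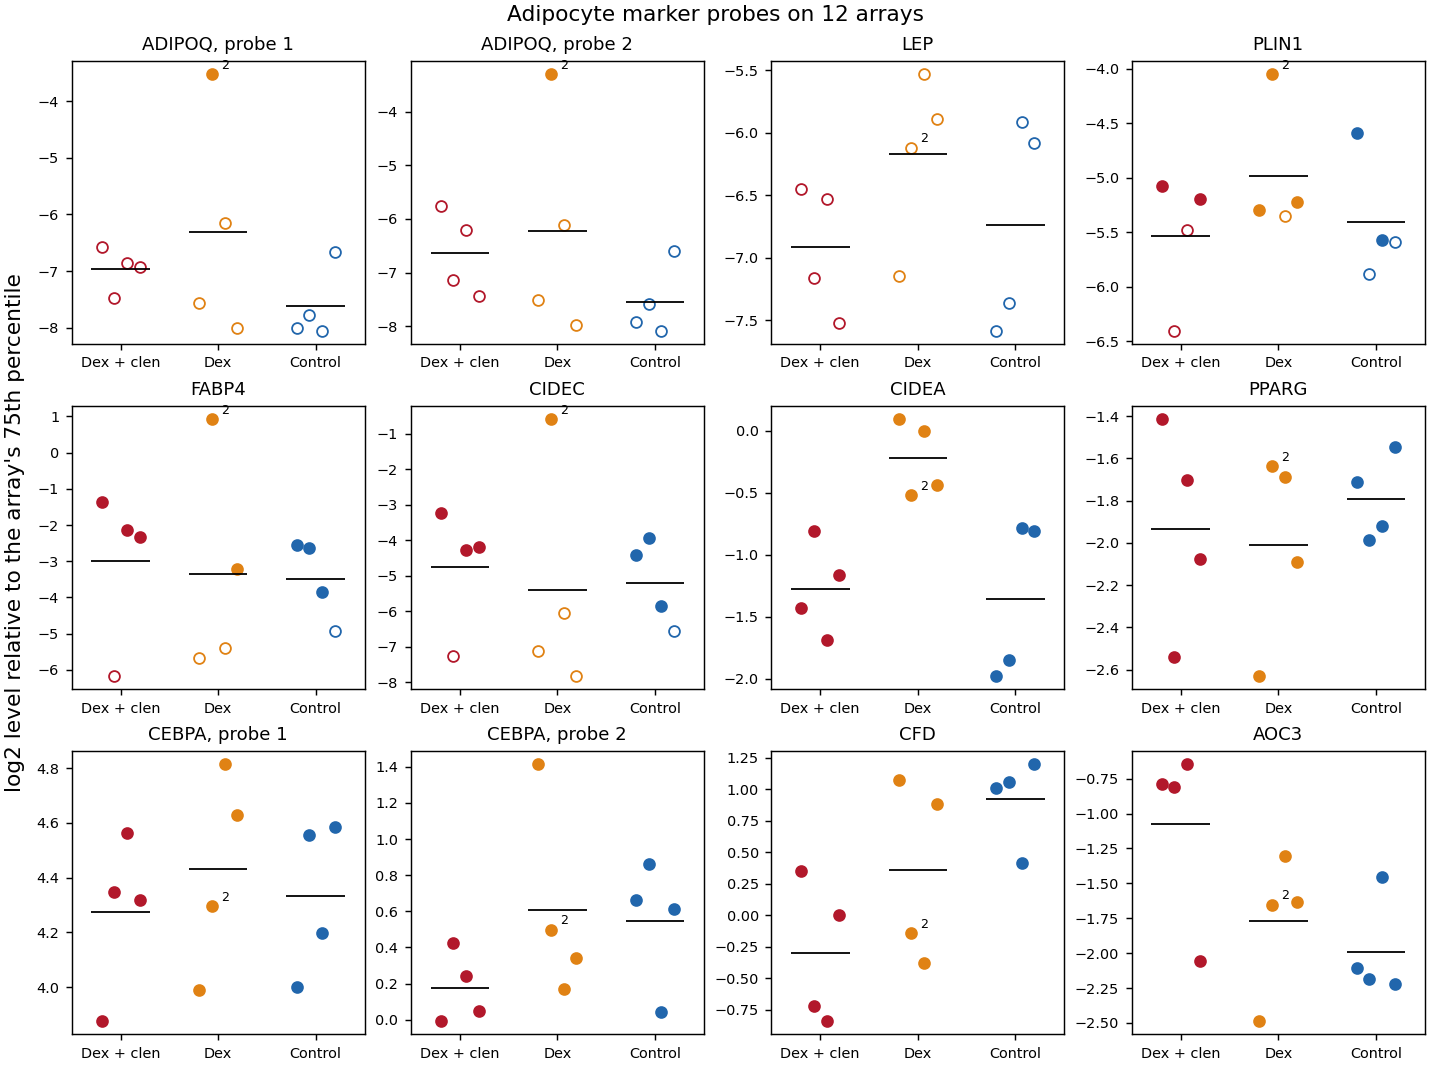
Log2 level of each adipocyte marker probe relative to the array's 75th percentile, 1 point per animal, with dexamethasone plus clenbuterol (Dex + clen), dexamethasone (Dex) and control from left to right, 4 animals each. Filled points are well above background, open points are not, bars are group means, and dexamethasone replicate 2, marked 2, is the highest point for ADIPOQ (-3.52 and -3.30), FABP4 (0.93), CIDEC (-0.58) and PLIN1 (-4.05). Each panel has its own vertical scale.

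The transcription factors of fat cell formation differed little between groups relative to the spread of their animals. PPARG, the nuclear receptor that drives adipocyte differentiation, stood at -1.41, -2.54, -1.70 and -2.08 in the 4 combination bulls, at -2.63, -1.64, -1.69 and -2.09 in the dexamethasone bulls and at -1.71, -1.99, -1.92 and -1.55 in the controls. The controls lay within the range of the combination bulls and overlapped the dexamethasone bulls. Its mean was -1.93 ± 0.49 in the combination group, -2.01 ± 0.46 in the dexamethasone group and -1.79 ± 0.20 in the controls (SD, n = 4 each). PPARG differed by -0.22 ± 0.27 (log2 change ± SE) between dexamethasone and control bulls, with a 95% interval of -0.81 to 0.37 and a limma adjusted p of 0.797. The interval for the combination against control was -0.73 to 0.45.

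CEBPA, the factor that acts with PPARG in late differentiation, had 2 probes. The brighter one read 3.88, 4.35, 4.56 and 4.32 in the combination bulls, 3.99, 4.30, 4.82 and 4.63 in the dexamethasone bulls, and 4.00, 4.56, 4.20 and 4.59 in the controls. The groups overlapped, and CEBPA had the smallest spread of the 8 markers, with a residual SD of 0.31 around the group means. Its log2 change was 0.10 ± 0.22 for dexamethasone against control, -0.06 ± 0.22 for the combination against control and -0.16 ± 0.22 for the combination against dexamethasone (SE, n = 4 per group). The second CEBPA probe gave 0.06, -0.37 and -0.43 for the same comparisons. The probes did not follow each other over the 12 arrays (r = -0.16), so which of them tracks the CEBPA transcript is uncertain. On the second probe, dexamethasone replicate 1 was highest at 1.42 while the other animals lay between -0.01 and 0.86.

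Among the lipid droplet proteins, PLIN1 and CIDEC were dim and differed between animals. PLIN1, or perilipin 1, which coats the adipocyte droplet and gates lipolysis, was well above background in 2 combination, 3 dexamethasone and 2 control bulls. It read -5.08, -6.41, -5.48 and -5.19 in the combination bulls, -5.30, -4.05, -5.35 and -5.22 in the dexamethasone bulls, and -4.59, -5.88, -5.57 and -5.59 in the controls. Dexamethasone replicate 2 was highest, 1.46-fold above control replicate 1, and the other 3 dexamethasone bulls lay between -5.35 and -5.22. The lead over control replicate 1 was smaller than the difference between the 2 spots of that control, at -5.10 and -4.08. The spots of dexamethasone replicate 2 read -3.99 and -4.10, and only the first was well above background. PLIN1 had a log2 change of 0.43 ± 0.38 for dexamethasone against control (limma adjusted p = 0.711), and of 0.12 without dexamethasone replicate 2.

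CIDEC, which promotes the fusion of droplets into one large droplet, spanned a far wider range. It read -3.24, -7.25, -4.28 and -4.20 in the combination bulls, -7.12, -0.58, -6.04 and -7.82 in the dexamethasone bulls, and -4.41, -3.94, -5.84 and -6.56 in the controls. It was well above background in 3 combination bulls, 1 dexamethasone bull and 3 controls. Dexamethasone replicate 2 exceeded the next animal, combination replicate 1, by 6.31-fold, and the lowest animal in which CIDEC was measurable, control replicate 3, by 38.3-fold. The other 3 dexamethasone bulls were not well above background.

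The group means of CIDEC did not show this. They were -4.74 ± 1.74 in the combination group, -5.39 ± 3.29 in the dexamethasone group and -5.19 ± 1.22 in the controls (SD, n = 4 each). The log2 change of CIDEC was -0.20 ± 1.38 for dexamethasone against control, with a 95% interval of -3.21 to 2.81, and became -1.80 without dexamethasone replicate 2 (limma adjusted p = 0.491). For the combination against dexamethasone it was 0.65 ± 1.38, and 2.25 without that animal (limma adjusted p = 0.453). Neither direction can be read from these arrays.

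FABP4, the cytosolic fatty acid carrier of adipocytes, followed CIDEC closely. It read -1.38, -6.17, -2.14 and -2.32 in the combination bulls, -5.68, 0.93, -5.39 and -3.23 in the dexamethasone bulls, and -2.56, -2.63, -3.84 and -4.92 in the controls. Dexamethasone replicate 2 was highest, 4.94-fold above combination replicate 1. FABP4 was well above background in 3 combination, 2 dexamethasone and 3 control bulls, and among those 8 animals its level spanned 27.1-fold. Combination replicate 2, dexamethasone replicates 1 and 3 and control replicate 4 have only upper bounds, and their order is not known. Dexamethasone replicate 2 was 136-fold above the bound of combination replicate 2, which is approximate.

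FABP4 averaged -3.00 ± 2.15 in the combination group, -3.34 ± 3.05 in the dexamethasone group and -3.49 ± 1.12 in the controls (SD, n = 4 each). The log2 change of FABP4 was 0.14 ± 1.38 for dexamethasone against control, with a 95% interval of -2.86 to 3.14, and 0.48 ± 1.38 for the combination against control, with an interval of -2.51 to 3.48. Without dexamethasone replicate 2, the first of these became -1.28 (limma adjusted p = 0.708). A difference of several fold in either direction was thus not detectable with 4 animals per group.

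**Figure D2:**
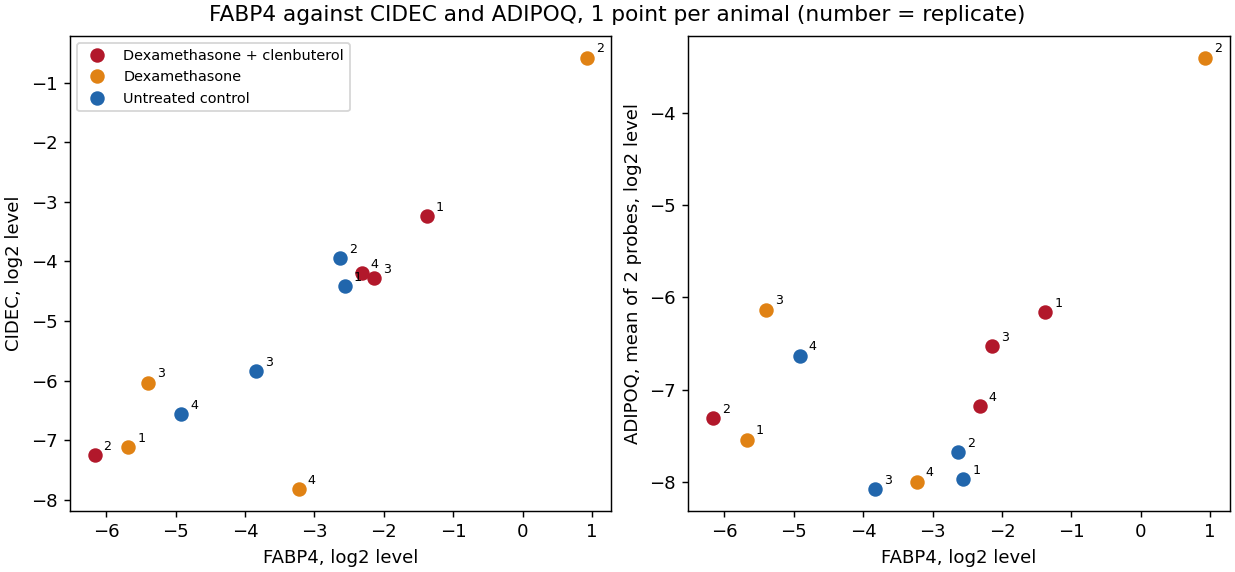
FABP4 level (horizontal, log2 relative to the array's 75th percentile) against CIDEC (left) and the mean of both ADIPOQ probes (right), 1 point per animal, coloured by treatment and numbered by replicate. FABP4 and CIDEC vary together over the 12 animals (r = 0.89), while ADIPOQ sets only dexamethasone replicate 2 apart.

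The level of FABP4 correlated with that of CIDEC at r = 0.89 over the 12 arrays (Spearman 0.84), at 0.80 without dexamethasone replicate 2 and at 0.89 once the group means were taken out. PLIN1 correlated with FABP4 at 0.72 and with CIDEC at 0.64, and at 0.51 and 0.34 without that animal. Without the 2 arrays farthest from the median of PLIN1, these fell to 0.25 and 0.12. With the group means taken out, PLIN1 correlated with FABP4 at 0.82 and with CIDEC at 0.77. The Spearman values were 0.65 and 0.43. PPARG correlated with FABP4 and with CIDEC at 0.56, and at 0.55 and 0.57 without dexamethasone replicate 2. Without the 2 arrays farthest from the median of FABP4 or of CIDEC, the values were 0.39 and 0.58. With the group means taken out they were 0.59 and 0.58, and the Spearman values were 0.52 and 0.55. The values compared come from the same RNA sample, slide and scan, those not well above background are included, and the correlations are given as a description. Over all 45 pairs of the 10 markers, the median correlation was 0.10, and 9 pairs were above 0.5. The 10 genes thus did not vary as a single block: FABP4 and CIDEC varied together between animals, and PPARG and PLIN1 followed them less closely. The correlations of PLIN1 with FABP4 and CIDEC fell when a few animals were left out. CIDEA, CFD, AOC3 and CEBPA correlated with FABP4 between -0.43 and 0.10, and the lowest of these was CIDEA. Without dexamethasone replicate 2, CIDEA correlated with FABP4 at -0.75 and with CIDEC at -0.78. With the group means taken out the values were -0.685 and -0.56, and without the 2 farthest arrays -0.82 and -0.78. CFD and AOC3 correlated at -0.78.

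The level of FABP4 also moved with the mean of a set of muscle fibre genes. It correlated with the mean of 10 skeletal muscle fibre genes, each set relative to its own mean, at r = 0.66 (Spearman 0.64), at 0.68 with the group means taken out and at 0.62 without the 2 farthest arrays. For CIDEC the same correlation was 0.43, for PPARG 0.57 and for CIDEA -0.575. Without the 2 farthest arrays these were 0.28, 0.30 and -0.38. Marker values not well above background are included. Among the muscle fibre genes, PVALB alone ranged from -2.96 to 3.95 over the animals, and such a wide range weighs in the mean. The muscle fibre mean lay between -0.41 and 0.55 in the combination bulls, between -1.004 and 0.46 in the dexamethasone bulls and between -0.50 and 0.23 in the controls. Dexamethasone replicate 2, at 0.23, was inside that range and not at its top. The part of the muscle fibre genes in the FABP4 values was not tested.

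Of the secreted products, ADIPOQ, or adiponectin, the most fat-restricted hormone of the set, was well above background in 1 of 12 animals. Its first probe read -6.57, -7.48, -6.86 and -6.92 in the combination bulls, -7.57, -3.52, -6.15 and -8.02 in the dexamethasone bulls, and -8.00, -7.77, -8.06 and -6.66 in the controls. The second probe read -3.30 in dexamethasone replicate 2 and between -8.09 and -5.75 in the other 11 animals. The 2 probes followed each other at r = 0.97, and at 0.91 without that animal. The 0.91 compares only values not well above background, so it does not show that measured levels agree.

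The same animal, dexamethasone replicate 2, thus stood out on both ADIPOQ probes. Against the upper bound of each other animal, it was 2.61-fold higher or more on the first probe and 3.04-fold or more on the second. The nearest bound was that of dexamethasone replicate 3, and these folds are approximate, as the bounds are. No fold is given between group means, since the other 3 dexamethasone bulls have only upper bounds. When ADIPOQ was entered into the fit with no filter on dim probes, its log2 change was 1.33 for dexamethasone against control (limma adjusted p = 0.621). That change takes values not well above background as levels.

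LEP, or leptin, the hormone that reports fat stores to the brain, was not well above background on any of the 12 arrays. Its values lay between -7.52 and -6.45 in the combination bulls, between -7.15 and -5.53 in the dexamethasone bulls and between -7.58 and -5.91 in the controls. These values are not measured levels, so no fold and no order of the animals is given for LEP.

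CFD, or adipsin, a serine protease of the complement pathway that adipocytes secrete, was readily measured in every animal. It read 0.35, -0.72, -0.84 and 0.00 in the combination bulls, 1.07, -0.14, -0.38 and 0.89 in the dexamethasone bulls, and 1.01, 1.06, 0.41 and 1.20 in the controls. All 4 combination bulls were below all 4 controls, though the highest of them, at 0.35, lay close to the lowest control, at 0.41. The dexamethasone bulls split, with replicates 1 and 4 at control levels and replicates 2 and 3 below every control.

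The mean of CFD was -0.30 ± 0.57 in the combination group, 0.36 ± 0.73 in the dexamethasone group and 0.92 ± 0.35 in the controls (SD, n = 4 each). CFD was 2.33-fold lower in combination bulls than in controls, a log2 change of -1.22 ± 0.37 with an interval of -2.02 to -0.43 (unadjusted p = 0.00578, limma adjusted p = 0.256). A gap without overlap in that direction was found for 3.72% of all genes tested. CFD differed by -0.56 ± 0.37 between dexamethasone and control bulls (limma adjusted p = 0.581). Between the arrays of scan day 2 the 3 combination bulls differed from the 1 control by -1.60. On the other days the 1 combination bull, replicate 4, differed from the 3 controls by -0.83.

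CIDEA, a droplet protein of the same family as CIDEC that is best known from brown and milk-secreting cells in mice, was measured in every animal. It read -1.43, -0.81, -1.68 and -1.17 in the combination bulls, 0.10, -0.52, 0.00 and -0.44 in the dexamethasone bulls, and -1.98, -1.85, -0.79 and -0.81 in the controls. Every dexamethasone bull was above every combination bull and every control. Control replicates 1 and 2 were lower than control replicates 3 and 4.

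CIDEA averaged -1.27 ± 0.37 in the combination group, -0.22 ± 0.31 in the dexamethasone group and -1.35 ± 0.65 in the controls (SD, n = 4 each). It was 2.20-fold higher in dexamethasone bulls than in controls, a log2 change of 1.14 ± 0.31 (unadjusted p = 0.00289, limma adjusted p = 0.132), which did not pass the threshold. Values higher without overlap were found for 2.51% of all genes in that comparison. In combination bulls CIDEA was 2.08-fold lower than in dexamethasone bulls, a log2 change of -1.06 ± 0.31 (unadjusted p = 0.00475, limma adjusted p = 0.244), and 2.76% of all genes were lower without overlap there. The combination differed from control by 0.08 ± 0.31. Dexamethasone against control gave 0.67 on scan day 2, with 1 control, and 1.1 on the other days, with 1 dexamethasone bull.

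Fibroblast and leukocyte markers varied among the same animals, and their part in the CIDEA and CFD values was not tested. The mean over 13 fibroblast genes, each set relative to its own mean, lay between -0.43 and 0.53 in the combination bulls, between -1.31 and 0.44 in the dexamethasone bulls and between 0.34 and 0.74 in the controls. For 10 leukocyte genes the ranges were -0.22 to 0.30, -1.31 to 0.89 and 0.32 to 0.77 in the same order. CFD correlated with the leukocyte mean at r = 0.59 over the 12 arrays, at 0.63 with the group means taken out and at 0.53 without the 2 farthest arrays. Dexamethasone replicates 2 and 3, below every control in CFD, had the lowest leukocyte means, -1.18 and -1.31, and dexamethasone replicate 1, at control level in CFD, had the highest, 0.89. Other animals did not follow that order. Combination replicates 2 and 3, the lowest of all animals in CFD, had leukocyte means of -0.11 and -0.22. Dexamethasone replicate 4, at control level in CFD, had -0.35. The correlation of CFD with the mean of 11 endothelial genes was -0.74, and -0.47 with the group means taken out. With the mean of 11 fatty acid synthesis genes it was -0.77, and -0.60 with the group means taken out. CIDEA correlated with the fibroblast mean at -0.40 and with the leukocyte mean at -0.29, and with the group means taken out both turned positive, at 0.30 and 0.27. All 13 fibroblast genes with a probe, and 10 of the 11 leukocyte genes with a probe, reached the background minimum for testing. In this bulk tissue, fewer cells of a type and less RNA per cell cannot be told apart, for adipocytes as for these cells.

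AOC3, the copper amine oxidase on the surface of adipocytes and of vascular smooth muscle, was measured in every animal. It read -0.79, -0.81, -0.65 and -2.05 in the combination bulls, -2.49, -1.65, -1.30 and -1.64 in the dexamethasone bulls, and -2.11, -2.19, -1.46 and -2.22 in the controls. Combination replicates 1 to 3 were above every other animal, and combination replicate 4 was at the level of the controls.

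AOC3 averaged -1.07 ± 0.66 in the combination group, -1.77 ± 0.51 in the dexamethasone group and -1.99 ± 0.36 in the controls (SD, n = 4 each). It was 1.89-fold higher in the combination group than in controls, a log2 change of 0.92 ± 0.34 (unadjusted p = 0.0185, limma adjusted p = 0.330). Combination replicates 1 to 3 shared slide 4 and scan day 2, and replicate 4 was on slide 5. Within scan day 2 the combination bulls differed from the 1 control by 1.47, and on the other days combination replicate 4 differed from the 3 controls by -0.14. Slide and animal cannot be told apart for this gene. Markers of smooth muscle and pericytes, 9 genes, lay between -0.10 and 0.47 in the combination bulls, between -0.20 and 0.16 in the dexamethasone bulls and between -0.29 and 0.00 in the controls. The highest of these means, 0.47, was that of combination replicate 4, whose AOC3 was at the level of the controls. AOC3 correlated with the smooth muscle and pericyte mean at r = 0.28, and at -0.23 with the group means taken out. With the mean of 11 endothelial genes it correlated at 0.60, and at 0.25 with the group means taken out. The part of these cells in the AOC3 values was not tested.

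**Figure D3:**
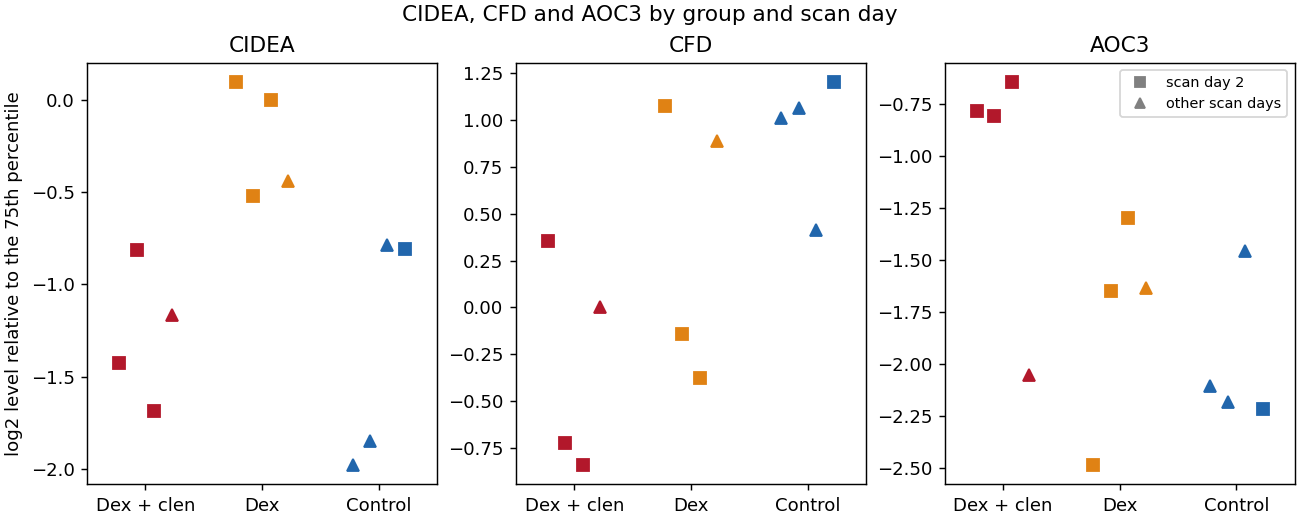
Log2 levels of CIDEA, CFD and AOC3 in each animal, with dexamethasone plus clenbuterol, dexamethasone and control from left to right, and squares for arrays of scan day 2 and triangles for the others. The dexamethasone points of CIDEA all lie above the other groups, and the 3 high AOC3 points of the combination group are all from scan day 2 while the triangle of that group lies at -2.05.

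The 84 genes that limma called for dexamethasone against control were 80 lower and 4 higher ones, and it called 6 for the combination against control and 2 for the combination against dexamethasone. At an unadjusted p under 0.05 there was 1 adipocyte marker, CIDEA, in the first comparison, 2, CFD and AOC3, in the second and 1, CIDEA, in the third, against 12.3%, 12.1% and 11% of all genes. The comparisons share arrays, so their results are not independent of each other. The median log2 change of the 8 markers was 0.12 for dexamethasone against control, with 0.03 for all genes, 0.01 for the combination against control, with 0.03, and -0.04 for the combination against dexamethasone, with 0.02.

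**Figure D4:**
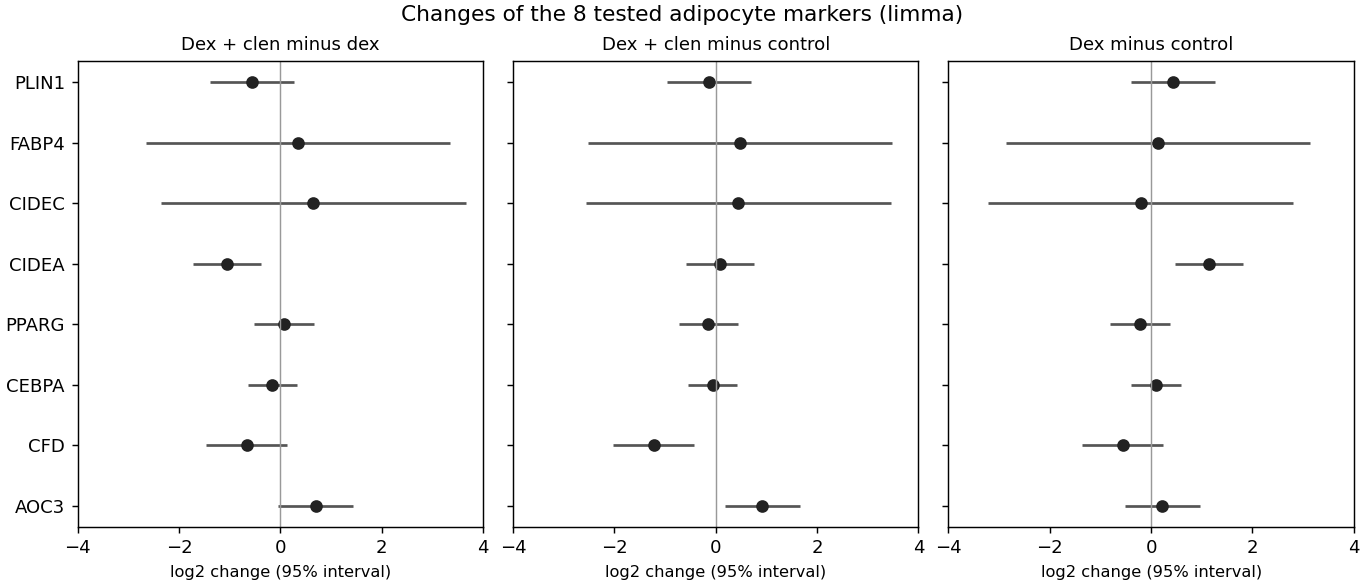
Log2 change of the 8 tested markers with its 95% interval from limma (n = 4 animals per group), for the combination against dexamethasone, the combination against control and dexamethasone against control from left to right. The intervals of FABP4 and CIDEC reach beyond 2 in both directions, and those of CIDEA, CFD and AOC3 leave 0 in the comparisons in which their unadjusted p is under 0.05.

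The spread between animals of the same group was described by the residual SD. FABP4 had a residual SD of 2.25 and CIDEC of 2.26 around the group means, and only 0.132% and 0.124% of all genes tested had a larger one. PLIN1 followed at 0.60, CFD at 0.57, AOC3 at 0.52, CIDEA at 0.47 and PPARG at 0.40. The median was 0.55 over the 8 markers and 0.35 over all genes. Without dexamethasone replicate 2, FABP4 still had a residual SD of 1.63 and CIDEC of 1.38, so the spread did not come from that animal alone. Values not well above background enter these SDs.

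Dexamethasone replicate 2 was set apart in other fat genes only in part. It held the highest level for 3 of the 8 tested markers and for 9.79% of all genes. Among 13 other genes of droplet coating and lipolysis it was highest for 2, LIPE and FITM1, and among 11 genes of fatty acid synthesis for 5, FASN, ELOVL6, ME1, SREBF1 and MLXIPL, all named here after their values were seen. LIPE, the hormone-sensitive lipase of adipocytes, read -1.19 in this animal, against -2.26 in combination replicate 1, the next highest. FASN, the fatty acid synthase, read 1.53, against 1.44 in the next. ME1 read -0.905 against -0.95, FITM1 3.89 against 3.85 and MLXIPL -1.76 against -1.88, so these gaps were small. ELOVL6, at -2.89 against -3.36, and SREBF1, at 1.39 against 1.02, led by more. With each gene set relative to its own mean, the fatty acid synthesis genes averaged 0.186 in this animal, rank 4 of 12, against 0.43 in combination replicate 2. The droplet and lipolysis genes averaged 0.29, rank 1. The animal was lowest of 12 for the desaturases FADS1, at -2.49, and FADS2, at -2.09. It was highest for 0 of 8 genes of triglyceride synthesis and 0 of 9 of fatty acid and glycerol uptake.

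**Figure D5:**
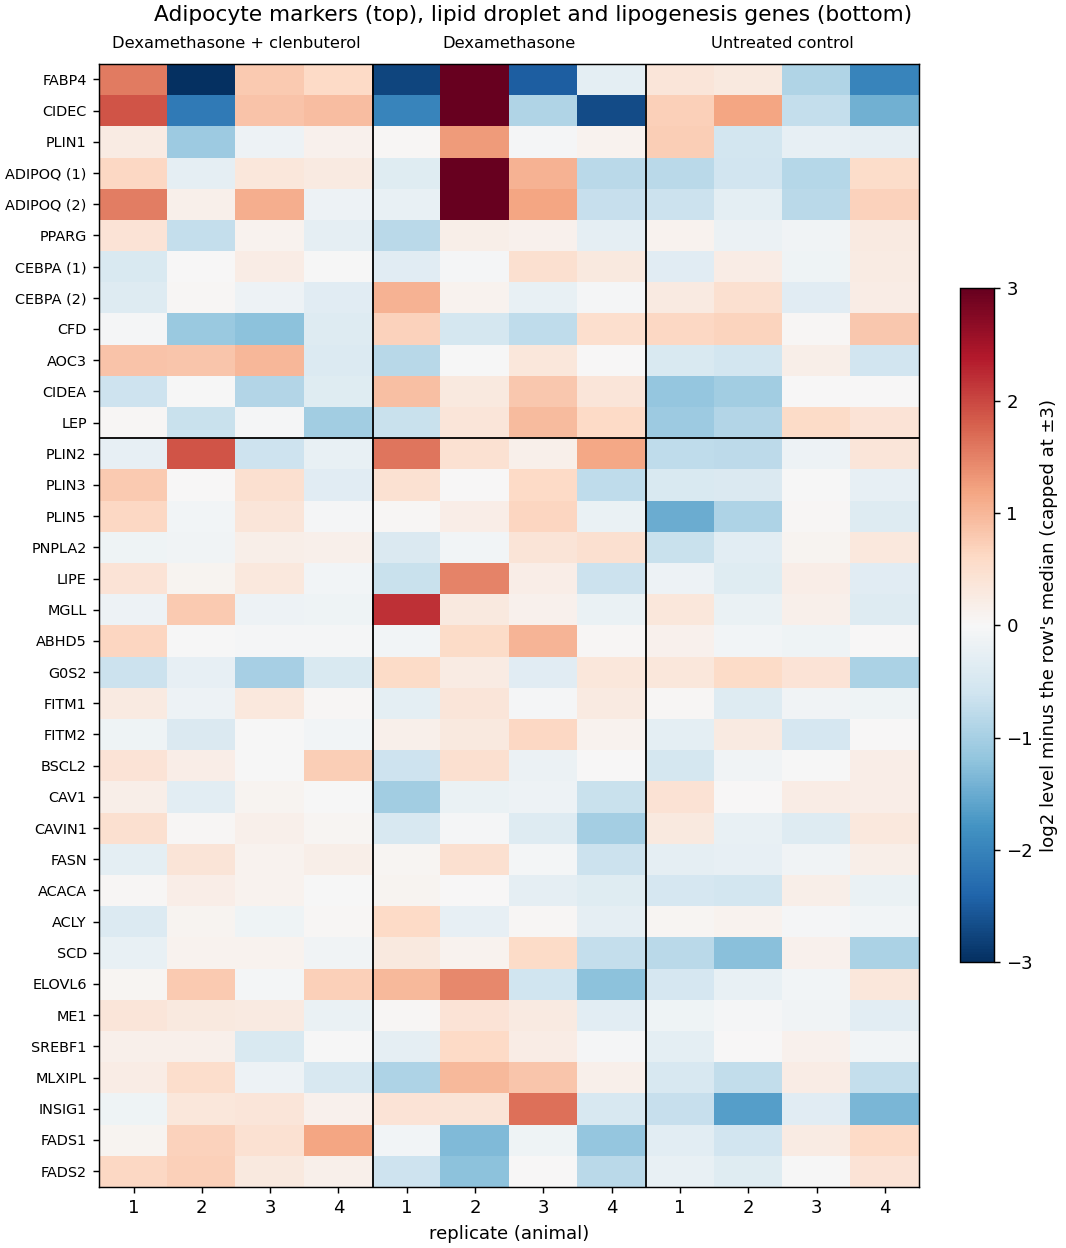
Levels of the 12 marker probes (above the line) and of 24 genes of droplet coating, lipolysis and fatty acid synthesis (below) in the 12 animals, as log2 level minus the row's median, with red above and blue below and colours capped at 3. The high FABP4, CIDEC and ADIPOQ of dexamethasone replicate 2 stand out, while most genes below the line differ less between animals.

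The other genes of fat metabolism were tested in the same fit. Of 13 droplet and lipolysis genes 0 were called in any comparison. The smallest p for dexamethasone against control was that of CAV1, a coat protein of surface caveolae, at a log2 change of -0.73 ± 0.21 (limma adjusted p = 0.164). For the combination against control it was PLIN5, a perilipin of oxidative muscle, at 0.91 ± 0.31 (adjusted p = 0.299), and for the combination against dexamethasone CAVIN1, a partner of caveolin, at 0.67 ± 0.23 (adjusted p = 0.329). The median log2 change of the list was 0.26, 0.18 and 0.04 in the same order, with all genes at 0.03, 0.03 and 0.02.

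Of 8 triglyceride synthesis genes 0 were called. DGAT2, which adds the last fatty acid, had 1.05 ± 0.52 for dexamethasone against control (limma adjusted p = 0.443), LPIN1, a phosphatidate phosphatase, -1.13 ± 0.46 for the combination against control (adjusted p = 0.366), and AGPAT2, an acyltransferase, -0.41 ± 0.19 for the combination against dexamethasone (adjusted p = 0.443). The medians were 0.23, -0.22 and -0.39.

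Of 11 fatty acid synthesis genes 0 were called. INSIG1, which restrains sterol and lipid synthesis, had the smallest p against control, with 1.51 ± 0.40 for dexamethasone (limma adjusted p = 0.127) and 1.19 ± 0.40 for the combination (adjusted p = 0.289). FADS2 had 1.11 ± 0.26 for the combination against dexamethasone (adjusted p = 0.168). The medians were 0.19, 0.46 and 0.09, and 10 of the 11 genes lay above 0 for the combination against control.

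Of 9 uptake genes 0 were called, with ACSL1, which activates long fatty acids, at 0.61 ± 0.21 for dexamethasone against control (limma adjusted p = 0.256) and at -0.62 ± 0.21 for the combination against dexamethasone (adjusted p = 0.312), and AQP7, a glycerol channel, at 0.92 ± 0.43 for the combination against control (adjusted p = 0.415). The medians were 0.42, -0.01 and -0.16.

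Regulators and signals of fat cells gave the same count. Of 16 adipogenic regulators 0 were called: EBF1 had -0.76 ± 0.22 for dexamethasone against control (limma adjusted p = 0.168), RXRG, a partner of nuclear receptors, 0.96 ± 0.23 for the combination against control (adjusted p = 0.184), and STAT5B 0.65 ± 0.22 for the combination against dexamethasone (adjusted p = 0.306). Of 16 adipokine and receptor genes 0 were called. LPAR1, a lysophosphatidic acid receptor, had -0.98 ± 0.26 for dexamethasone against control (adjusted p = 0.127), INSR, the insulin receptor, 0.63 ± 0.30 for the combination against control (adjusted p = 0.432) and RETN, or resistin, 0.90 ± 0.33 for the combination against dexamethasone (adjusted p = 0.351). RETN was well above background in 4 combination bulls, 1 dexamethasone bull and 2 controls. That change thus takes the values of 3 dexamethasone bulls not well above background as levels. The leptin receptor LEPR and the adrenergic receptor ADRB3 were not above background on enough arrays to be tested.

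Precursor and brown fat markers were examined as well. Of 13 genes of fat cell precursors 0 were called. PDGFRA, the receptor that marks fibro-adipogenic cells, read -0.92, -1.82, -1.32 and -0.47 in the combination bulls, -0.68, -1.47, -1.35 and -1.12 in the dexamethasone bulls, and -0.02, 0.18, 0.25 and -0.29 in the controls. All 8 treated bulls were below all 4 controls, as were 3.93% of genes for dexamethasone and 3.72% for the combination taken alone. The log2 change of PDGFRA was -1.18 ± 0.28 for dexamethasone against control (limma adjusted p = 0.0837) and -1.16 ± 0.28 for the combination against control (adjusted p = 0.182), short of the threshold in both. MEST, an imprinted gene linked to fat cell size in mice, had 1.27 ± 0.53 for the combination against dexamethasone (adjusted p = 0.407).

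UCP1, the uncoupling protein of brown fat, was not above background on enough arrays to be tested, and 0 of the 5 other brown fat markers were called. DIO2, a deiodinase, had -1.05 ± 0.56 for dexamethasone and -0.85 ± 0.56 for the combination against control (limma adjusted p = 0.480 and 0.563), and COX7A1, a respiratory chain subunit, -0.31 ± 0.20 for the combination against dexamethasone (adjusted p = 0.629).

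Markers of other cells in the tissue showed 1 call. CD3E, a subunit of the T cell receptor complex, read -4.29, -3.30, -3.59 and -3.14 in the combination bulls, -4.74, -4.58, -5.45 and -4.54 in the dexamethasone bulls, and -3.51, -3.06, -2.43 and -3.34 in the controls. It was lower in every dexamethasone bull than in every other animal, and well above background in 3 of these 4 bulls. Its log2 change was -1.74 ± 0.31 for dexamethasone against control (limma adjusted p = 0.0312), in which 0.585% of all genes were called lower, and -0.50 ± 0.31 for the combination against control (adjusted p = 0.535). The other 9 leukocyte genes tested were not called.

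Of 13 fibroblast genes 0 were called, and all 13 lay below 0 for dexamethasone against control, with a median log2 change of -1.20. DCN, or decorin, a matrix proteoglycan, had -1.20 ± 0.27 there (limma adjusted p = 0.0788) and 0.79 ± 0.27 for the combination against dexamethasone (adjusted p = 0.314). Of 11 endothelial genes 0 were called. PLVAP, a protein of fenestrated capillaries, had 1.19 ± 0.21 for the combination against control (adjusted p = 0.123) and 0.58 ± 0.21 against dexamethasone (adjusted p = 0.345), and ERG, an endothelial transcription factor, -0.72 ± 0.23 for dexamethasone against control (adjusted p = 0.210).

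The remaining lists, 9 smooth muscle and pericyte, 2 blood, 10 muscle fibre and 5 nerve genes, held 0 calls. Their smallest p-values belonged, for dexamethasone against control, to PDGFRB, HBB, MYH7 and S100B, with log2 changes of -0.56, -0.86, 0.23 and 0.95. For the combination against control they belonged to NOTCH3, HBA, PVALB and S100B, with 0.64, 0.32, 2.21 and 0.67. For the combination against dexamethasone those given belonged to NOTCH3, HBB and PVALB, with 0.40, 1.39 and 2.83. The limma adjusted p of these 11 values ran from 0.316 to 0.8. HBB was well above background in 3 combination bulls, 1 dexamethasone bull and 3 controls, so its changes rest in part on values not well above background.

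The pattern of the markers over animals was summarised as the mean of the 8 tested markers, each set relative to its own mean. It read 0.55, -0.86, 0.16 and 0.10 in the combination bulls, -0.57, 1.27, -0.23 and -0.18 in the dexamethasone bulls, and 0.14, 0.08, -0.16 and -0.30 in the controls. FABP4 and CIDEC, having the widest ranges, weigh most in this mean. The 10 genes whose level followed it most closely over the 12 arrays were UBE3A (r = 0.89), CCDC137 (0.87), GPANK1 (0.86), SCLT1 (0.85), MTRES1 (0.85), GK5 (0.84), ERGIC2 (0.83), ACSM1, TCEANC and PSTPIP2 (0.82). All 10 were highest in dexamethasone replicate 2. Without that animal 0 of them remained among the 10 closest, so which genes rank closest rests on it. Their correlations with the marker mean were then lower, from 0.55 for PSTPIP2 to 0.80 for UBE3A.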

How the data were processed

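Messenger RNA of biceps brachii from 12 bulls was measured on 1-colour Agilent arrays, 1 animal per array. The scanner files deposited by the authors give linear spot intensity from Feature Extraction 9.5.1.1, per the file headers. A second table of the authors' own values, also linear intensity, ranks spots as the scanner signal does and serves as an alternative. It has a maximum of 689500 on all 12 arrays and array medians of 137.25 to 181.167, and no source used here gives its scaling steps.

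For each array, log2 was taken of the deposited intensity (background-subtracted by the software) and the 75th percentile subtracted. Spots marked as outliers were left out, spots of a probe averaged, and probes kept when well above background on at least 4 of 12 arrays. The probe with the highest mean stood for a gene. Names were updated through a RefSeq table of assembly ARS-UCD2.0 (10098 probes by gene number, 3413 by accession, 383 by symbol, 2748 by their human match and 1, for ADIPOQ, by an older name, while 4832 kept the file's name). The comparisons used limma 3.58.1 under R 4.3.3, with lmFit on 3 group means and eBayes. P-values are 2-sided and adjusted by Benjamini-Hochberg over all 13681 genes, with calls made below 0.05. The fit was tested on simulated data. Figures were drawn with matplotlib 3.10.9.

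The members, gene lists and tests were chosen with earlier results of these data known. From each list other than the markers, the text names the genes called in any comparison, or else the gene of smallest p in each, and the 10 genes most like the marker mean. Of these, 1 gene is not reported here. Alternatives were another background correction and normalization, the authors' table, other filters and probe choices, scan day and slide as blocks, fewer arrays and array weights.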

Additional observations from a re-analysis of the deposited data

Results flagged for a closer look

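In 36 groups of 4 animals (12 probes in 3 groups), 3 held an animal far from the other 3 of its group by Dixon's criterion, and chance alone gives about 1 in 20. PLIN1 in dexamethasone replicate 2, at -4.05, lay above the other dexamethasone bulls (gap over range 0.90). AOC3 in combination replicate 4, at -2.05, lay below the other combination bulls (0.88). AOC3 in control replicate 3, at -1.46, lay above the other controls (0.85). All 3 values counted as well above background, though for PLIN1 only 1 of the 2 spots did.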

How the results depend on the processing

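Under 23 alternatives, 11 in processing and 12 that left out 1 array each, 0 of the tested markers were called in any comparison. The smallest limma adjusted p was 0.0596. With scan day as a block, 0 of all genes were called in any comparison. Many other alternatives also called 0 of all genes in the comparisons of the combination. Where no gene was called, the count of 0 says nothing of the markers. The median log2 change of the markers ran from -0.11 to 0.54 for dexamethasone against control, from -0.19 to 0.11 for the combination against control and from -0.37 to 0.05 for the combination against dexamethasone. Of 543 recomputed values, 39 changed sign, all for changes that were not called, and the cause was not tested. For dexamethasone against control, CIDEC became 0.29 with normexp background, 1.98 with scan day as a block and 0.20 with array weights, and CEBPA became -0.046 with quantile normalization, -0.049 with the authors' table and -0.22 with the scan day block. For the combination against control, CIDEA became -0.065 with scan day 2 as a block and -0.50 with all scan days, and CEBPA 0.039 with array weights. For the combination against dexamethasone, CIDEC became -0.12 with normexp and -0.34 with the scan day block, and PPARG -0.04 with array weights.

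Leaving out 1 array each, dexamethasone against control ran from -1.28 to 0.92 for FABP4, -1.80 to 0.61 for CIDEC and -0.03 to 0.25 for CEBPA. The combination against control ran from -0.29 to 0.16 for PLIN1, -0.058 to 1.54 for FABP4, -0.052 to 1.28 for CIDEC, -0.13 to 0.27 for CIDEA, -0.32 to 0.061 for PPARG and -0.17 to 0.074 for CEBPA. The combination against dexamethasone ran from -0.44 to 1.77 for FABP4, -0.16 to 2.25 for CIDEC and -0.13 to 0.28 for PPARG. The number of all genes called for dexamethasone against control, 84, ran from 0 (scan day block) to 287 (array weights), and was 13 with scan day 2 as a block, 24 without control replicate 1 and 261 without dexamethasone replicate 1. The counts of 6 and 2 in the other comparisons ran from 0 to 128 and from 0 to 74. Of the 10 genes closest to the marker mean, 2 were shared with a rank correlation, 4 with group means taken out, and 4 and 0 with FABP4 or ADIPOQ alone in place of the mean, the last pair chosen after seeing the data. Differences within scan days were also chosen then. No paired analysis was possible because the labels give the animals no numbers shared between groups. Signal near background limits ADIPOQ, LEP, PLIN1, CIDEC and FABP4, and RETN and HBB in dexamethasone bulls. Of the probes described below, it also limits ADIG in dexamethasone bulls and AOC2 in dexamethasone and control bulls.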

Other observations

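Probes of 3 genes close to the markers were examined after their values were seen. ADIG, or adipogenin, a small protein of adipocytes, was well above background in 4 combination bulls, 1 dexamethasone bull and 3 controls. It read -3.82, -4.29, -3.52 and -4.03 in the combination bulls, -6.95, -4.50, -5.49 and -3.82 in the dexamethasone bulls, and -3.63, -3.58, -4.52 and -4.48 in the controls. Its log2 change was 1.27 ± 0.54 for the combination against dexamethasone (limma adjusted p = 0.409). That change takes the values of dexamethasone bulls not well above background as levels. Dexamethasone replicate 2, the animal with the highest FABP4, was not set apart in ADIG, a probe near background in most bulls of its group.

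AOC2, the amine oxidase closest to AOC3 by name, was well above background in 4 combination, 2 dexamethasone and 2 control bulls. It had a log2 change of 0.98 ± 0.31 for the combination against control (limma adjusted p = 0.267), which takes control values not well above background as levels. Unlike AOC3, it read -4.45 in combination replicate 4, within the range of the other combination bulls, -4.77 to -4.30. A further probe described as a membrane copper amine oxidase, not counted as AOC3 by name, was well above background only in dexamethasone replicate 3.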
